A study of Mus musculus with 2 samples.

Results

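Neutrophils and monocytes arise from a shared granulocyte-monocyte progenitor, and 7 transcriptional regulators known to act at that branch were followed here across mouse bone marrow: Gfi1, Irf8, Klf4, Spi1, Zeb2, Id2 and Runx1. The genes were chosen by name, 7 of the 32285 genes in the count tables, and each symbol matched a single gene. Bone marrow of mice aged 13-14 weeks was profiled by droplet-based 3′ single-cell RNA sequencing on the BMKMANU DG1000 platform. There was 1 library from control mice (Ctrl) and 1 from Map4k4-cko mice (cKO), and in both, c-Kit+ stem and progenitor cells enriched on magnetic beads were mixed with marrow cells from which red cells had been lysed. The mixture sets the proportions of cell types, so levels were compared within cell types.

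The study's methods write the control genotype as Mx1-Cre Map4k4-/- and the cKO genotype as Mx1-Cre Map4k4 f/f, as littermates on C57BL/6. Mx1-Cre is a recombinase driven by an interferon-inducible promoter, so deletion follows an injected interferon inducer (poly I:C) and is not limited to blood cells. The methods give the injections for the cKO mice and do not say whether the controls received them, and interferon itself acts on blood stem cells. How many mice were pooled in a library is not given in the sources used here. Each condition had a single library, so differences between Ctrl and cKO rest on no replicates and none was tested. Intervals below are 95% exact intervals that cover counting error only.

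Map4k4, the kinase gene targeted in the cKO mice, was read first. Its level, as UMIs summed over the cells of a type and scaled to their total (CPM), was 129 CPM in Ctrl and 132 CPM in cKO stem and multipotent cells, 9.63 and 17.7 CPM in neutrophil progenitors, 147 and 122 CPM in mature neutrophils, and 240 and 163 CPM in monocytes. The cKO level was therefore higher in some cell types and lower in others. A 3′ count of the whole gene does not show whether an upstream part was deleted. These values therefore neither check nor contradict the labels, and Ctrl and cKO stand for the libraries labelled so. The paper reports, from RT-PCR, that the Map4k4 transcript was lost in stem and progenitor cells after poly I:C, a different measure from these counts.

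In the marrow, GFI1 is a zinc-finger repressor required for neutrophil formation, and IRF8 is an interferon regulatory factor that directs progenitors towards monocytes and dendritic cells and limits neutrophil output. The 2 factors are known for restraining each other's programmes. KLF4 and ZEB2 act on the monocyte and dendritic side, PU.1 (the product of Spi1) and RUNX1 serve both branches, and ID2 is a helix-loop-helix protein without a DNA-binding region that holds E proteins off DNA.

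In the mm10 annotation (GENCODE release M21), Irf8 lay on chromosome 8 from 120736358 to 120756694 on the + strand. A stretch just before its start is shown because the letters of a GFI1 site and of the STAT site known as GAS fall close together in it. The stretch is chr8:120736162-120736233 of GRCm38.p6, + strand, from RefSeq, and ends 125 bases before that start. Capitals mark the letters of the 3 matches.

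Irf8: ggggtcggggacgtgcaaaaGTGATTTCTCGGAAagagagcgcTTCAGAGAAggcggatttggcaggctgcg

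The first run of capitals holds the GFI1 letters AAATCAC, read on the opposite strand, overlapping a GAS match (TTCNNNGAA), and the other run is the remaining GAS match. Over all 32851 windows of the same length, which run from 250 bases before to 50 after a gene's start, 3.20% held the GFI1 letters and 8.30% held GAS on either strand. Of the 7 genes, 6 had windows, and the other 5 of these held no GFI1 letters. GAS letters were also found in windows of Zeb2, and the RUNX letters TGTGGT, present in 16.8% of windows, in a window of Runx1. None of the 6 held the PU.1 letters GAGGAAGT, present in 3.20% of windows, or the ETS-IRF composite motif. A match describes letters, not a bound site.

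The Ctrl library held 10220 barcodes and 71527701 UMIs and the cKO library 6872 barcodes and 64393950 UMIs. After limits on genes, mitochondrial share and depth, 8795 Ctrl and 5347 cKO cells remained, with a median of 4940 and 8783 UMIs. Cells were assigned to 20 cell types by marker lists that contained none of the 7 genes, which placed 7446 Ctrl and 4355 cKO cells and left 15.3% and 18.6% ungated. The types with at least 50 cells in both libraries were stem cells with multipotent progenitors (HSC/MPP), the granulocyte-monocyte range (GMP), ProNeu (early neutrophil progenitors), cycling neutrophil precursors (PreNeu), immature and mature neutrophils (imNeu, mNeu), cycling monocyte progenitors (ProMon), monocytes and megakaryocyte-erythroid progenitors (MEP). All 10 ProNeu and all 12 mNeu markers were highest in their own gate, whereas 0 of 8 GMP markers were. Kit, Cd34, Cdk6 and Myb were higher in HSC/MPP and Mpo, Plac8 and Prss57 in ProNeu, so GMP here is the range between those gates, and 120 Ctrl and 59 cKO cells near its limits were left out. Only 1 of 8 ProMon markers peaked in ProMon, which shares its list with monocytes. In Ctrl, Ly86, Pld4 and Mpeg1 were highest in neither of these gates. The libraries shared 3010 barcode names, and the cells kept in both under 1 name had the same type in 12.1% of cases, beside 11.5% expected from the sizes of the gates.

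Droplet libraries can hold free RNA, which gives UMIs in cells that do not express a gene, and its amount was not measured here. Irf8 UMIs were found in 9.61% of Ctrl PreNeu cells at a median of 10228 UMIs and in 0.938% of cKO PreNeu cells at 19320 UMIs. The Irf8 levels of PreNeu, imNeu, mNeu and MEP were not read as expression. Levels of different genes were not compared with each other.

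**Figure D1:**
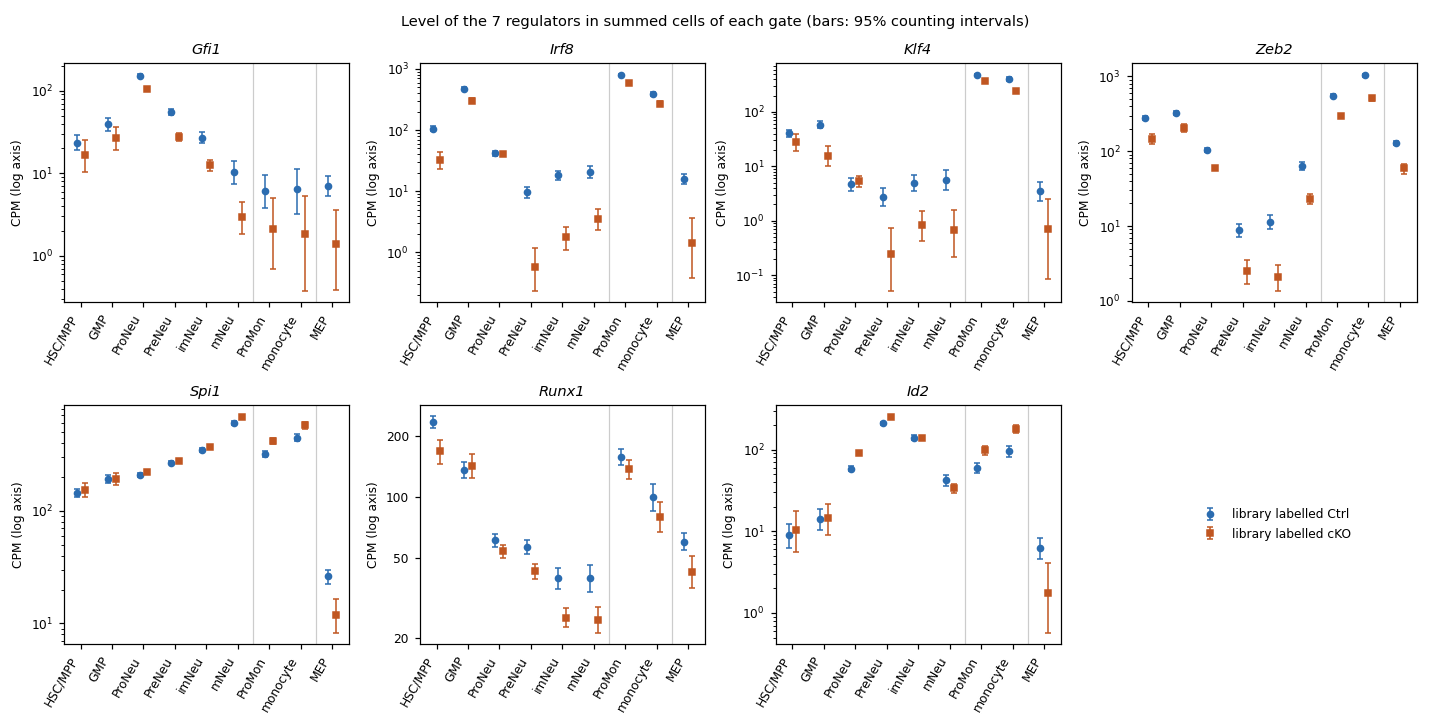
Level of each regulator in CPM (log axis) over the summed cells of 9 gates, with Ctrl as blue circles and cKO as orange squares and bars as 95% counting intervals. Gfi1 peaks in ProNeu, Irf8 and Klf4 in ProMon and Zeb2 in monocytes, whereas Spi1 climbs from HSC/MPP to mNeu in both libraries.

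Gfi1 was highest in ProNeu in both libraries. Its level there was 153 CPM in Ctrl (95% interval 146 to 160) and 104 CPM in cKO (98.2 to 109), and 80.8% of Ctrl and 77.6% of cKO ProNeu cells had a Gfi1 UMI. The next gate, PreNeu, held 54.9 CPM in Ctrl and 27.4 CPM in cKO, and neither interval overlapped that of ProNeu. The gene fell along neutrophil maturation to 27.1 and 12.5 CPM in imNeu and to 10.2 and 2.97 CPM in mNeu. Before the ProNeu peak it stood at 23.5 CPM in Ctrl and 16.7 CPM in cKO in HSC/MPP, and at 39.3 and 26.8 CPM in GMP. In ProMon it was 6.16 and 2.13 CPM, a level whose interval overlapped those of monocytes and MEP in both libraries. Gfi1 overlaps A430072P03Rik on the opposite strand, and how reads shared by overlapping genes were counted is not given in the sources used here.

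Id2 followed Gfi1 along the neutrophil path but peaked a step later. Among the 9 gates, PreNeu was highest, with 209 CPM in Ctrl and 248 CPM in cKO, and 74.6% and 86.7% of PreNeu cells held an Id2 UMI. It rose into this gate from 14.1 and 14.4 CPM in GMP and 58.2 and 91.4 CPM in ProNeu. Beyond it, imNeu held 140 and 138 CPM and mNeu 42.4 and 33.6 CPM. In Ctrl, T and NK cells stood above every other gate at 564 CPM, the lymphoid lineage for which Id2 is best known.

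Irf8 was high in GMP and ProMon and low in ProNeu, where Gfi1 peaked. ProMon held 798 CPM in Ctrl (767 to 829) and 596 CPM in cKO (565 to 628), and GMP held 474 and 302 CPM. Both gates exceeded ProNeu, which stood at 41.4 CPM in Ctrl and 40.4 CPM in cKO. Monocytes held 393 and 271 CPM, and HSC/MPP held 105 and 32.7 CPM. PreNeu, imNeu and mNeu lay between 9.57 and 21.0 CPM in Ctrl and between 0.582 and 3.51 CPM in cKO, levels not read as expression. The highest level of all was in plasmacytoid dendritic cells (pDC), a lineage that depends on IRF8, at 4141 CPM over 86 Ctrl cells, and 10 cKO pDC held 3963 CPM. B cells in Ctrl stood at 460 CPM, with an interval that overlapped GMP and monocytes.

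Klf4, a zinc-finger factor needed for monocyte formation, was highest in ProMon and monocytes. ProMon held 476 CPM in Ctrl and 375 CPM in cKO, and monocytes 408 and 242 CPM. GMP held 58.6 CPM in Ctrl and 15.7 CPM in cKO, and HSC/MPP held 40.5 and 27.9 CPM. ProNeu held 4.65 and 5.31 CPM, and the later neutrophil gates 2.79 to 5.74 CPM in Ctrl and 0.249 to 0.838 CPM in cKO.

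Zeb2 was highest in monocytes, at 1033 CPM in Ctrl and 510 CPM in cKO, and was next at 549 and 296 CPM in ProMon among the 9 gates. It was also found before the branch, with 276 and 147 CPM in HSC/MPP and 324 and 204 CPM in GMP. It fell to 103 and 59.9 CPM in ProNeu and to 8.83 and 2.49 CPM in PreNeu. It was higher again in mNeu, at 63.4 and 22.9 CPM, than in imNeu, at 11.5 and 2.06 CPM. Megakaryocytes in Ctrl held 687 CPM over 59 cells. Zeb2os overlaps Zeb2 on the opposite strand.

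Spi1 was detected along both branches and increased with maturation on each. From HSC/MPP to mNeu it took the values 144, 190, 207, 266, 341 and 599 CPM in Ctrl and 151, 191, 222, 277, 369 and 669 CPM in cKO. On the monocyte side it was 316 and 410 CPM in ProMon and 441 and 567 CPM in monocytes. Intervals of neighbouring steps overlapped between GMP and ProNeu in Ctrl and between HSC/MPP and GMP in cKO, and not at the later steps. The lowest of the 9 gates was MEP, where PU.1 is known to give way to the erythroid factor GATA1, at 26.1 and 11.9 CPM.

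Runx1 declined as neutrophils matured. Its level was 236 CPM in Ctrl and 168 CPM in cKO in HSC/MPP, 136 and 142 CPM in GMP, 61.2 and 53.8 CPM in ProNeu, and 39.7 and 24.7 CPM in mNeu. ProMon kept 158 and 137 CPM, and monocytes 99.5 and 80.1 CPM. Basophils and mast cells were highest in Ctrl at 514 CPM over 68 cells.

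ProMon and ProNeu, the first committed gates of the branches, were then set against each other. Of the 7 regulators, 5 were at least 2-fold apart in the same direction in both libraries: Irf8, Klf4, Zeb2 and Runx1 were higher in ProMon and Gfi1 was higher in ProNeu. Among all 9390 genes with enough UMIs, 1812 were that far apart, or 19.3%, with 1195 higher and 617 lower in ProMon. The log2 ratio of ProMon over ProNeu was 6.68 for Klf4, 4.27 for Irf8, 2.41 for Zeb2, 1.37 for Runx1 and -4.63 for Gfi1 in Ctrl. In cKO these ratios were 6.14, 3.88, 2.31, 1.35 and -5.61. Spi1 was higher in ProMon by a log2 ratio of 0.61 in Ctrl and 0.89 in cKO, below 2-fold. Id2 did not separate the gates, with ratios of 0.04 (-0.20 to 0.27) and 0.09 (-0.12 to 0.30). The median over all genes was 0.13 in Ctrl and 0.24 in cKO, so the ratios that reached 2-fold were far from it in either library.

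Other regulators that act with or beside the 7, a list of 33, gave 25 with enough UMIs, of which 9 were at least 2-fold higher in ProMon in both libraries and 2 were lower. Among the higher ones were Cebpb, Irf5, Irf7, Tcf4, Cbfb, Klf2, Klf3 and Klf6. Irf5, an interferon regulatory factor of macrophages, was 131 against 2.54 CPM in Ctrl and 169 against 1.88 CPM in cKO. Cbfb, the partner that RUNX proteins need for stable DNA binding, was 143 against 66.4 CPM and 118 against 43.7 CPM, the same side as Runx1. The lower ones were Cebpe, the C/EBP factor of secondary granule formation, at 25.3 against 228 CPM and 17.0 against 236 CPM, and Ets1, at 8.63 against 48.2 CPM and 0.851 against 27.2 CPM. Kdm1a and Rcor1, which encode the demethylase LSD1 and its scaffold and act as GFI1's corepressors, were not 2-fold apart. Kdm1a stood at 49.6 CPM in ProMon and 45.9 CPM in ProNeu in Ctrl.

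Differences between the libraries were read within each gate as the log2 ratio of cKO over Ctrl, with a gene counted where it passed 1.5-fold. All genes leaned lower in cKO, with gate medians from -0.11 in HSC/MPP to -0.42 in imNeu, so each count is given with the share of all genes past 1.5-fold. In HSC/MPP, 2 of 6 regulators passed, both lower, beside 17.7% of genes. In GMP 3 of 7 passed, all lower, beside 16.0%. In ProNeu 1 was lower and 1 higher of 7, beside 20.5%. In PreNeu 3 of 6 were lower, beside 21.6%. In imNeu and in mNeu 4 of 6 were lower, beside 35.5% and 36.6%. In ProMon 1 was lower and 1 higher of 6, beside 18.1%, and in monocytes 2 were lower and 1 higher of 6, beside 25.8%. In MEP 5 of 6 were lower, beside 22.9%. The genes past 1.5-fold were split unevenly, from 12.7% lower and 4.96% higher in HSC/MPP to 33.9% lower and 1.55% higher in imNeu, and with each gate's median set to 0 the lower share came to 8.32% and 11.6% there. After that centring 2 regulators passed 1.5-fold in HSC/MPP, both lower, beside 16.6% of genes in either direction. GMP had 1, lower, beside 13.9%, and ProNeu 1, higher, beside 10.8%. PreNeu, imNeu and mNeu had 3 each, all lower, beside 11.4%, 18.7% and 21.0%. ProMon and monocytes each had 1 lower and 1 higher, beside 16.1% and 23.5%. MEP had 5, all lower, beside 20.5%. Before and after centring, the lower counts of PreNeu, imNeu, mNeu and MEP include Irf8, whose levels there were not read as expression. Those of PreNeu and imNeu also include Zeb2, and those of mNeu and MEP Gfi1, at the low levels given below.

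**Figure D2:**
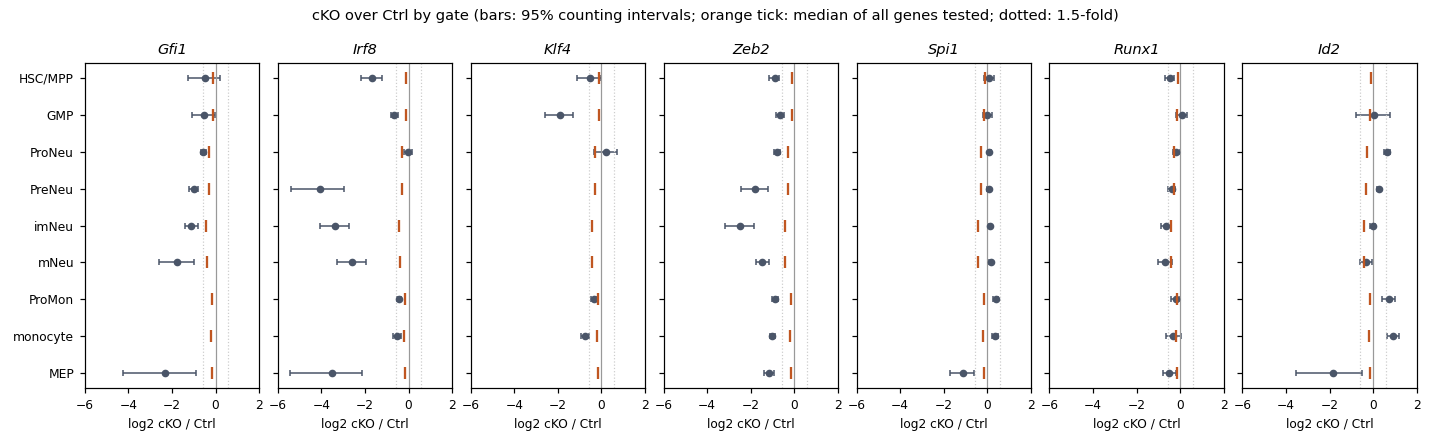
Log2 ratio of cKO over Ctrl for each regulator in each gate where it had at least 50 UMIs, with 95% counting intervals, dotted lines at 1.5-fold and an orange tick at the median of all genes in that gate. Zeb2 lies left of the median in 9 of 9 gates, Spi1 in 1 of 9, and Id2 reaches 0.91 in monocytes.

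Zeb2, a repressor of the zinc-finger homeobox family, was the only one of the 7 that passed 1.5-fold in every gate compared. It was lower in cKO in 9 of 9 gates, with log2 ratios from -0.66 in GMP to -2.48 in imNeu and a median of -1.02. The imNeu ratio rests on low levels, with 82 Ctrl and 27 cKO UMIs, as does that of PreNeu, with 95 and 30. The part of free RNA in these 2 ratios was not tested. Zeb2 was lower than the median gene in 9 of 9 gates as well. In monocytes, where it was most abundant, the ratio was -1.02 (-1.14 to -0.90), and in ProMon -0.89 (-1.02 to -0.76). Setting the gates' medians to 0 left it under 1.5-fold in ProNeu, at -0.50, and in GMP, at -0.53, and thinning cells to 1000 UMIs left it under 1.5-fold in ProMon, at -0.56. The nuclear transcripts Malat1 and Kcnq1ot1 moved the same way. Malat1 was 1.36-fold lower in cKO in mNeu and 5.31-fold lower in monocytes, the ends of its range over the gates, and Kcnq1ot1 was 2.06-fold to 4.87-fold lower. Neat1 and Gm26917, read with them, fell less evenly. Neat1 was 1.05-fold lower in HSC/MPP, with an interval that included no difference, and up to 2.16-fold lower in GMP. Gm26917 was 1.17-fold lower in MEP and up to 2.82-fold lower in mNeu. Whether what lowered these transcripts had a part in the Zeb2 values was not tested.

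Irf8 was lower in cKO in 9 of 9 gates and past 1.5-fold in 6. Outside the gates not read as expression the log2 ratio was -1.69 (-2.19 to -1.22) in HSC/MPP, -0.65 (-0.80 to -0.50) in GMP, -0.54 in monocytes and -0.42 in ProMon. Grouping cells by Leiden clusters instead gave -0.67 in HSC/MPP. GMP cells were deeper in Ctrl, at a median of 13185 UMIs, than in cKO, at 7252, the reverse of the whole libraries. The part of this in the GMP ratios of the regulators was not tested. An Irf8 UMI was found in 30.6% of Ctrl and 9.71% of cKO GMP cells at 1000 UMIs. At 5000 UMIs, which fewer cells reach, the shares were 75.7% and 69.1%. In GMP the Irf8 ratio fell under 1.5-fold with the gate's median set to 0, at -0.52, and with no margin around the limits, at -0.48. It reached -1.56 with cells thinned to 1000 UMIs. In ProNeu the ratio was -0.04 (-0.22 to 0.15), and other choices of cells moved it between -0.51 and 0.33. The largest ratios, -4.04 in PreNeu, -3.37 in imNeu, -3.52 in MEP and -2.58 in mNeu, were in the gates not read as expression, and the part of free RNA in them was not tested.

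Klf4 had enough UMIs in 5 gates and was lower in 4 of them. It differed by -1.90 (-2.58 to -1.29) in GMP, where Leiden clusters gave -0.83, by -0.75 in monocytes and by -0.34 in ProMon. The monocyte ratio was under 1.5-fold with Leiden clusters, at -0.57, with cells thinned to 1000 UMIs, at -0.56, and with median-of-ratios scaling, at -0.56. The GMP fall was not particular to Klf4. Of its relatives in the wider list, Klf2 and Klf6 had GMP ratios of -1.85 and -1.72, and Klf3 of 0.27 (-0.48 to 0.99). Egr1, also of that list, was at -2.13. Runx1 was lower in 8 of 9 gates and passed 1.5-fold in imNeu and mNeu, at -0.64 and -0.68, in which the median gene was also lower by 0.42 and 0.41. In imNeu the Runx1 ratio became 0.35 once the lowest gate's UMIs per cell were taken off as background.

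Gfi1 was lower in cKO in 7 of 7 gates with enough UMIs, though the interval in HSC/MPP, -1.25 to 0.21, included 0. It was past 1.5-fold in 4: PreNeu, imNeu, mNeu and MEP. Of these, mNeu and MEP rest on low levels, with 41 Ctrl and 22 cKO UMIs and 52 and 4 UMIs. In ProNeu, the peak of Gfi1, the log2 ratio was -0.56 (-0.66 to -0.45), short of 1.5-fold. A lower ratio was found for 22.0% of the genes in that gate. With every cell thinned to 1000 UMIs the ProNeu ratio was -0.17, and UMIs per cell were 2.73 in Ctrl and 2.48 in cKO. In PreNeu the interval of the ratio was -1.20 to -0.80, and in imNeu the ratio was -1.12. Cebpe, a neutrophil regulator of the wider list, had ratios of 0.05 in ProNeu, -0.01 in PreNeu, -0.35 in imNeu and -1.11 in mNeu.

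Spi1, and Id2 in some gates, went against the lean of the other genes. Spi1 was at or above the Ctrl level in 8 of 9 gates, by a log2 ratio of 0.38 (0.25 to 0.50) in ProMon and 0.36 (0.22 to 0.50) in monocytes, and passed 1.5-fold in none of them. The ratios of ProMon and monocytes stayed above 0 under every alternative run, at 0.08 to 0.53 in ProMon and 0.36 to 0.75 in monocytes. Id2 was higher past 1.5-fold in 3 gates: 0.65 (0.51 to 0.79) in ProNeu, 0.71 (0.42 to 0.99) in ProMon and 0.91 (0.63 to 1.19) in monocytes. In these gates it stood at the 99.2, 98.0 and 98.9 percentile of the genes counted. The share of cells with an Id2 UMI was 31.4% in Ctrl and 62.1% in cKO monocytes, at medians of 5201 and 9241 UMIs. Leiden clusters gave 0.40 for the Id2 ratio in ProNeu, and thinning gave 0.31 there and 1.61 in monocytes. For PreNeu, the Id2 peak, the ratio was 0.25 (0.17 to 0.33), short of 1.5-fold. Id2 was not higher in imNeu, at -0.01 (-0.13 to 0.10), or in mNeu, at -0.34 (-0.62 to -0.05), where alternatives ranged from -0.44 to 2.07. The median gene was at -0.42 in imNeu and -0.41 in mNeu. Id2 was lower in MEP at -1.83, with 5 cKO UMIs. In GMP, with 48 and 22 UMIs, the ratio was 0.03 (-0.77 to 0.79), too wide to show a difference.

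Of the 33 other regulators, those past 1.5-fold in ProNeu were 9 lower and 1 higher of 25, beside 19.3% of all genes lower and 1.19% higher. In GMP 6 were lower and 0 higher of 22, beside 13.0% and 3.01%. In ProMon 7 were lower and 0 higher of 23, beside 14.5% and 3.60%, and in monocytes 9 were lower and 2 higher of 26, beside 20.6% and 5.27%. The higher ones were Id1, a relative of Id2, in ProNeu, at 0.87 (0.62 to 1.12), and Id1 and Cebpd in monocytes. There Id1 was at 0.65 (-0.001 to 1.32) and Cebpd at 0.61 (0.35 to 0.87). Kdm1a and Rcor1 had log2 ratios of -0.66 and -0.67 in ProNeu, where the median gene was at -0.28, and less that median neither passed 1.5-fold.

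Cells that carry Gfi1 and Irf8 together were counted next, since the branch is described as a choice between the programmes of these factors. Every cell was thinned to a fixed number of UMIs, and the cells with both genes were set beside the number expected from the product of the 2 shares. At 1000 UMIs the counts were too small to read: 2 cells with both against 4.59 expected in Ctrl GMP (ratio 0.436, 0.0529 to 1.56), 1 against 3.06 in Ctrl ProNeu, and 0 against 0.485 and 1.68 in cKO GMP and ProNeu. At 2000 UMIs Ctrl GMP showed no shortfall, with 10 cells against 10.4 (0.959, 0.465 to 1.73), and cKO GMP had 1 against 2.69. ProNeu had 6 against 12.6 in Ctrl (0.475, 0.175 to 1.03) and 1 against 4.13 in cKO. A depth of 5000 UMIs, chosen after these counts were seen, left 169 Ctrl and 55 cKO GMP cells and 619 and 473 ProNeu cells.

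**Figure D3:**
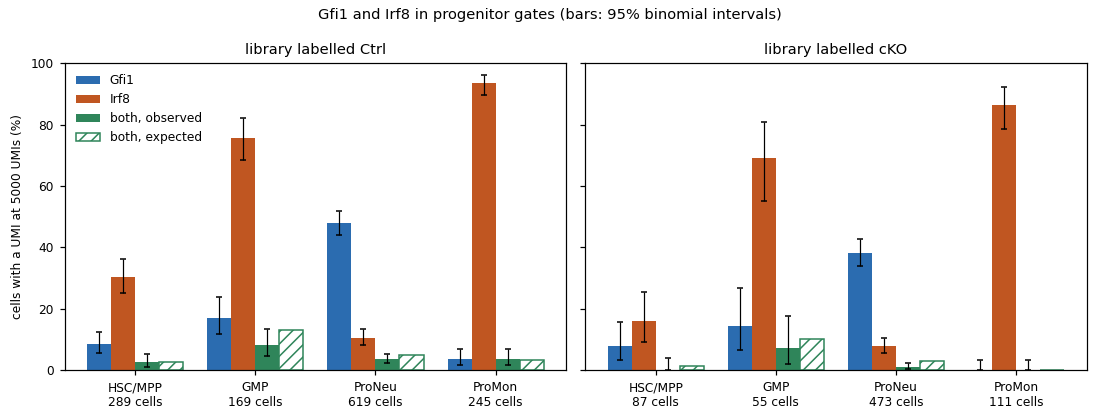
Share of cells (%) with a UMI of Gfi1, of Irf8 and of both after thinning to 5000 UMIs in 4 progenitor gates, with hatched bars for the share expected from the product and black bars for 95% binomial intervals. Cells with both were 8.28% of Ctrl GMP and 1.06% of cKO ProNeu cells, and fewer than expected in GMP and ProNeu of both libraries.

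At 5000 UMIs the share of cells with both genes was 8.28% in Ctrl GMP and 3.55% in Ctrl ProNeu. Gfi1 was found in 17.2% and Irf8 in 75.7% of Ctrl GMP cells, and 14 cells had both against 22.0 expected (ratio 0.637, 0.354 to 1.04). In cKO the shares were 14.5% and 69.1%, with 4 cells against 5.53 (0.724, 0.201 to 1.75). In ProNeu, Gfi1 was found in 48.0% of Ctrl and 38.3% of cKO cells and Irf8 in 10.7% and 7.82%. There 22 Ctrl cells had both against 31.7 expected (0.695, 0.438 to 1.04) and 5 cKO cells against 14.2 (0.353, 0.115 to 0.818). The ratio lay below 1 in all 4 of these sets and its interval excluded 1 only in cKO ProNeu. The intervals of these ratios take the expected number as fixed and ignore how the shares bound the overlap. They are no test of independent detection, and an interval that includes 1 does not show it. In Ctrl HSC/MPP 8 cells had both against 7.61 expected, and in Ctrl ProMon 9 against 8.41, so no shortfall was seen there. In cKO HSC/MPP 0 cells had both against 1.13 expected, too few to read. In cKO ProMon no Gfi1 UMI was found in 111 cells (0 to 3.27%). With all UMIs kept and the expected number taken within bins of cells of like depth, the ratios were 0.848 and 0.890 in GMP and 0.876 and 0.705 (0.501 to 0.959) in ProNeu.

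Other pairs of genes at the same depth showed how the measure behaves. Irf8 and Klf4, both of the monocyte side, were found together in 4 Ctrl ProNeu cells against 1.17 expected. The ratio was 3.41 (0.931 to 8.69), an interval that included 1. In cKO ProNeu 6 cells had both against 0.782 expected (ratio 7.67, 2.82 to 16.6). In HSC/MPP, GMP and ProMon the ratio of this pair ran from 0.730 (Ctrl HSC/MPP) to 1.45 (cKO GMP). All intervals there included 1, although in Ctrl GMP 28 of the 29 cells with Klf4 also had Irf8. Gfi1 and Id2 in ProNeu gave 1.005 (0.788 to 1.26) in Ctrl and 0.984 (0.752 to 1.26) in cKO. In MEP, 6.94% of Ctrl and 1.43% of cKO cells had an Irf8 UMI at this depth, and the part of free RNA in the Irf8 shares was not tested.

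Cells were also split by their Irf8 UMIs at 5000, with an upper class of at least 3 UMIs that was chosen after the values were seen. Gfi1 was found in 4 of 62 Ctrl GMP cells of that class (6.45%, 1.79 to 15.7%), in 10 of 66 with 1 or 2 Irf8 UMIs (15.2%), and in 15 of 41 with none (36.6%, 22.1 to 53.1%). The intervals of the outer classes did not overlap in Ctrl GMP. In cKO GMP the corresponding counts were 0 of 14, 4 of 24 and 4 of 17, with intervals that overlapped. In ProNeu they were 5 of 16 (31.3%), 17 of 50 (34.0%) and 275 of 553 (49.7%) in Ctrl and 0 of 10, 5 of 27 (18.5%) and 176 of 436 (40.4%) in cKO. Such an order was not seen in Ctrl HSC/MPP, with 1 of 12, 7 of 76 and 17 of 201, or in Ctrl ProMon, with 7 of 155, 2 of 74 and 0 of 16.

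Irf8 in ProNeu was held by few cells. The 34 Ctrl ProNeu cells with the most Irf8 UMIs carried 65.9% of all Irf8 UMIs in that gate, with up to 19 in a cell, and the 27 such cKO cells carried 85.1%, with up to 41. For Gfi1 the corresponding shares were 17.3% and 17.6%, that is, Gfi1 was spread over the gate. The study removed doublets (droplets with more than a single cell) with DoubletFinder, whereas no doublet caller was used here. The part of doublets in the cells with most Irf8 was not tested. By share of cells alone, Irf8 in Ctrl ProNeu (21.0% at a median of 17407 UMIs) was no higher than in MEP (21.3% at 14105 UMIs), although its CPM was 41.4 against 16.1 CPM.

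**Figure D4:**
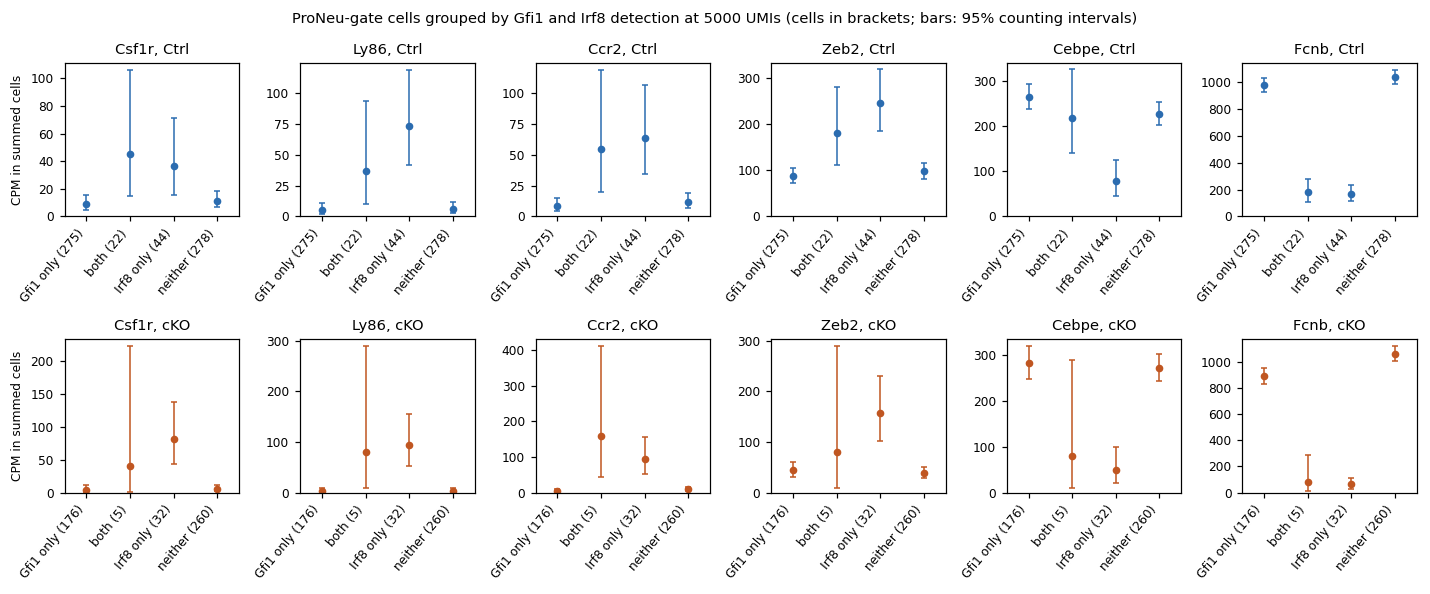
CPM (linear axis, each panel with its own range) of 6 genes in ProNeu cells grouped by detection of Gfi1 and Irf8 at 5000 UMIs, with Ctrl above and cKO below, group sizes in brackets and bars as 95% counting intervals. Cells with Irf8 alone lie above cells with Gfi1 alone for Csf1r, Ly86, Ccr2 and Zeb2 and below them for Cebpe and Fcnb in both libraries.

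ProNeu cells with Irf8 and no Gfi1 differed from those with Gfi1 and no Irf8 in genes of both lineages. The groups were 44 and 275 cells in Ctrl and 32 and 176 in cKO. Ccr2, the chemokine receptor of monocytes, was 63.6 CPM in Irf8-only and 8.73 CPM in Gfi1-only Ctrl cells, and 93.8 and 3.41 CPM in cKO. Csf1r, the receptor of the macrophage growth factor, was 36.4 and 8.73 CPM in Ctrl and 81.3 and 4.55 CPM in cKO, and Ly86 was 72.7 and 5.09 CPM and 93.8 and 2.27 CPM. Fcnb, a granule lectin of the neutrophil precursor, ran the other way at 168 and 982 CPM in Ctrl and 62.5 and 890 CPM in cKO. Cebpe was 77.3 and 265 CPM in Ctrl, and in cKO the interval of Irf8-only cells was 21.6 to 98.5 CPM beside 282 CPM in Gfi1-only cells. Every ProNeu cell lay under a limit on a monocyte list that includes Csf1r, Ly86 and Ccr2, so the gate bounds how high these can be, while Fcnb belongs to the PreNeu list, which sets no limit on ProNeu. Elane, the neutrophil elastase gene that marks the gate, remained high in both, at 10455 and 15164 CPM in Ctrl. In the whole GMP gate, Cebpe was 53.6 CPM in Ctrl and 46.3 CPM in cKO. Whether the groups differ in their place between GMP and later ProNeu cells was not tested, nor was the part of doublets in them.

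Among the other regulators in the same groups, Zeb2 was 246 CPM in Irf8-only and 87.3 CPM in Gfi1-only Ctrl cells and 156 and 44.3 CPM in cKO. Id2 was low in Irf8-only cells, at 13.6 CPM beside 65.5 CPM in Gfi1-only Ctrl cells and 12.5 beside 97.7 CPM in cKO. Ctrl ProNeu cells with neither gene held Id2 at 66.9 CPM, near the Gfi1-only cells. The ratios of Gfi1 with Id2 in ProNeu given above, 1.005 in Ctrl and 0.984 in cKO, showed no excess of cells with both. Spi1 had overlapping intervals at 214 and 230 CPM in Ctrl and 163 and 211 CPM in cKO, and so was Runx1 at 77.3 and 65.5 CPM and 68.8 and 46.6 CPM. Ctrl ProNeu cells with both genes, 22 in all, held Fcnb at 182 CPM, near the Irf8-only cells, and Cebpe at 218 CPM, near the Gfi1-only cells.

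In Ctrl GMP, monocyte genes, Cebpe and Fcnb differed in the same directions as in ProNeu, and primary granule genes did not. There 114 cells had Irf8 only and 15 had Gfi1 only. The summed monocyte markers were 1446 CPM in Irf8-only and 427 CPM in Gfi1-only cells, Cebpe was 28.1 and 173 CPM, and Fcnb was 31.6 and 307 CPM. The summed primary granule genes were 10247 CPM in Irf8-only and 10173 CPM in Gfi1-only cells, and Prtn3, the proteinase 3 gene, was 4289 CPM (4121 to 4463) and 3400 CPM (2995 to 3844). GMP cells had to lie between a lower and an upper limit on the ProNeu list, which includes Prtn3. The gate therefore bounds granule RNA on both sides, and near-equal sums cannot show that the groups are alike in it. The limit on the monocyte list applies here as well. In Ctrl ProNeu the granule sums were 23350 and 31425 CPM. In Ctrl GMP, Klf4 was 73.7 CPM (53.1 to 99.6) in Irf8-only and 13.3 CPM (0.338 to 74.3) in Gfi1-only cells, intervals that overlapped. Only 4 cKO GMP cells had Gfi1 alone, too few for a comparison.

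Across 26 points, each a gate in a library, the log2 levels of Irf8, Klf4 and Zeb2 ran together, with Pearson's r of 0.79 for Irf8 with Klf4, 0.73 for Irf8 with Zeb2 and 0.76 for Klf4 with Zeb2. Gfi1 did not follow any of the other 6 closely, with r between -0.30 and 0.28. The points share 2 libraries and their depth, so r is a description. Of 6579 other genes, those with patterns most like Gfi1 were Afap1 (r = 0.81), Gpc1 (0.80) and Pxylp1 (0.79), all highest in ProNeu. Those most like Irf8 were Pip4p1 (0.92), Slc29a3 (0.91) and Scpep1 (0.90), all highest in pDC. Klf4 was matched by Tep1 (0.95), Plxnb2 (0.94) and Il6st (0.93), and Spi1 by Arl11 (0.96) and Fes (0.95). Zeb2 was matched by Tox4, Ankle2 and Ehd4 (0.91 to 0.92), Id2 by Aoah, Cyba and Efhd2 (0.79 to 0.82), and Runx1 by Ppp6r1, Tgfb1 and Bcor (0.87 to 0.89).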

How the data were processed

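The authors deposited UMI counts per gene and barcode for each library, whole numbers that were not normalized, made with Cell Ranger 5.0.0 against mm10 per the submitters' processing notes. Barcodes with 200 to 9000 genes, at most 30% mitochondrial UMIs and at least 1000 UMIs were kept, which leaves out some shallow neutrophils. Each marker list gave a score from 0 to 1 per cell. Cells were gated on these scores with a margin of 0.025 around the limits. The stem, GMP and neutrophil gates needed the scores of all other lineages to be under their limits. A cell above such a limit went to the lineage whose score was highest relative to its limit, if that score led the others by 0.025. Cells above the limits of 2 such lineages could therefore still be gated. Cells that met no rule were left ungated. No doublet caller was used. UMIs were summed per gate and library and given as CPM, with exact Poisson or binomial (Clopper-Pearson) intervals. Genes with at least 50 UMIs over both libraries in a gate were compared between cKO and Ctrl. ProMon was set against ProNeu for genes with at least 50 UMIs over both gates in each library. Genes of like pattern were ranked by Pearson's r of log2(CPM + 10) among genes reaching 50 CPM in a gate. Named genes were the 7 regulators, the 3 genes most like each regulator, Map4k4 and gate markers. Other regulators were named with at least 20 CPM in a gate and over 2-fold between ProMon and ProNeu in both libraries. Malat1, Kcnq1ot1, Neat1, Gm26917, Kdm1a, Rcor1, Egr1, Id1, Cebpd and the genes set against Gfi1 and Irf8 detection were added after values were seen. Some genes that this rule names are not reported here. The members and lists were chosen with earlier results of these data known. Thinning drew UMIs without replacement, and the scripts were tested on simulated data. Python 3.11.15, scipy 1.17.1 and scanpy 1.11.5 were used.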

Additional observations from a re-analysis of the deposited data

Results flagged for a closer look

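The cKO over Ctrl log2 ratio of Spi1 was 0.38 in ProMon and -1.13 in MEP, and that of Id2 was 0.91 in monocytes and -1.83 in MEP, so each gene was higher in cKO in one gate and lower in another, with counting intervals on opposite sides of 0. The difference between gates was not tested, since each gate had 1 library per condition. The MEP values rest on low levels, with 34 Spi1 and 5 Id2 UMIs in 86 cKO cells, and both genes were at or near their lowest level there.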

How the results depend on the processing

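No paired analysis was possible because each condition had 1 library, and for the same reason no library could be left out. Of the regulators' cKO over Ctrl ratios under the alternatives, 543 stayed within the counting error of the main value, 89 moved beyond it and 2 reversed a ratio that had passed 1.5-fold, which were Id2 in MEP (0.081 as the mean over cells of each cell's proportion) and Runx1 in imNeu (0.35 with the lowest gate's UMIs taken off, an alternative added after seeing the data). Another 10 of the ratios, none past 1.5-fold, took the other sign under at least 1 alternative, among them Irf8 in ProNeu (-0.51 to 0.33), Id2 in mNeu (-0.44 to 2.07) and Runx1 in PreNeu (-0.40 to 0.12). Zeb2 kept its direction in each gate under each alternative run. Of ProMon over ProNeu ratios 116 stayed and 22 moved, and the Id2 ratio in Ctrl, near 0, ranged from -0.03 to 0.33. Gfi1 in cKO gave none when thinned to 1000 UMIs, since no Gfi1 UMI was left in ProMon. The observed over expected ratio for Gfi1 with Irf8 at 1000 UMIs became 0 in Ctrl GMP with cells of at least 2000 UMIs or a double margin, and 0 in Ctrl ProNeu with at most 10% mitochondrial UMIs. In cKO ProNeu, where this ratio was 0, the alternatives ranged from 0 to 1.14, and none was counted as moved.

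The regulators past 1.5-fold became 1 in ProNeu and 1 in ProMon with Leiden clusters, and 3 in MEP without the deepest cells. With median-of-ratios scaling they became 1 in GMP and 1 in ProNeu, beside 13.9% and 10.8% of genes. For the other alternatives the numbers of regulators and genes compared are not given here. Their counts therefore cannot be read as shares. With cells thinned to 1000 UMIs, where fewer genes reach 50 UMIs, they became 2 in mNeu and 1 in each of HSC/MPP, GMP, ProNeu, PreNeu, imNeu, ProMon and MEP, and the regulators 2-fold apart between ProMon and ProNeu became 3. All genes past 1.5-fold then numbered 343 in HSC/MPP, 226 in GMP, 641 in ProNeu, 652 in PreNeu, 1099 in imNeu, 1315 in mNeu, 280 in ProMon, 427 in monocytes and 459 in MEP. In the same order of gates they numbered 2929, 2427, 3143, 3122, 4748, 4819, 2688, 3211 and 3331 with a minimum of 10 UMIs. Median-of-ratios scaling gave 1088 in ProNeu, 1010 in PreNeu, 1534 in imNeu and 1490 in mNeu, and the mean of proportions gave 2557 in GMP.

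Depth limited the comparison of low levels: Gfi1 in ProMon and monocytes, Id2 in HSC/MPP and Klf4 in 4 gates had too few UMIs over both libraries to be compared.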
